A study of Saccharomyces cerevisiae with 16 samples.

Results

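The histone genes of budding yeast are the subject: the 8 core genes, which encode H2A (HTA1, HTA2), H2B (HTB1, HTB2), H3 (HHT1, HHT2) and H4 (HHF1, HHF2), with HTZ1, which encodes the H2A variant H2A.Z, and HHO1, which encodes the linker histone. These 10 of the 6225 genes on the array were found by their systematic ORF names, all 10 were among the 6046 genes tested, and each had 1 probe. RNA came from 2 chemostat cultures, A and B, of a strain in the S288C background from the YETI collection, in which ROF1, a WOPR-family transcription factor gene, lies behind a promoter that the artificial, estradiol-activated factor Z3EV switches on. Phosphate limited growth in both, 1 µM β-estradiol was added at steady state, and cells were taken at 0, 5, 10, 15, 20, 30, 45 and 90 min, with 1 array per culture and time (16 arrays in all). Each array carried the sample in Cy5 (red) beside RNA of strain DBY12001, also S288C, in Cy3 (green), and values are log2 ratios of red over green.

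Core histones form the octamer around which DNA is wrapped, and cells make them mostly in S phase, when new DNA has to be packaged. In yeast the genes lie in divergent pairs, each pair driven from a shared promoter region, and here HTA1 lay next to HTB1 on chromosome IV, HTA2 next to HTB2 on II, HHT1 next to HHF1 on II and HHT2 next to HHF2 on XIV, while HTZ1 (XV) and HHO1 (XVI) stood alone. H2A.Z is placed at promoters by the SWR1 complex, and its gene is expressed outside S phase as well. Negative control of the core genes, other than HTA2-HTB2, passes through the HIR complex. The copies of H3 and H4 encode the same proteins, and those of H2A and H2B nearly so, so a probe for 1 copy may also bind RNA of the other.

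ROF1 itself rose by 4.01 on the log2 scale at 90 min (adjusted p = 2.94e-06, limma). The size of that rise depended on the processing, with 2.025 to 4.758 over 28 alternative settings. The arrays were of similar brightness, with median red signals between 930.5 and 1417 intensity units, the lowest on the 10 min array of culture B, and 183 outlier spots on the 15 min array of culture B against 3 to 60 on the others. Changes of all genes from 0 min in both cultures correlated with Pearson's r between 0.70 at 15 min and 0.94 at 90 min, across genes, which are not independent replicates. Every time was hybridised at the same position on both slides and each culture had its own slide, so time and array position, and culture and slide, cannot be told apart. A culture without ROF1 induction was not analysed here, so induction and time after the addition of β-estradiol cannot be told apart either. All 10 histone probes were well above background in both colours on 16 of 16 arrays, with 0 saturated spots, and 1 outlier spot, of HHT2, was left out.

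The ratio to the reference rose for all 10 histone transcripts at 90 min, and before that it had moved little, but in the red sample channel alone 6 of 10 passed the test, and HTB1, HHF1, HHO1 and HTZ1 did not. In the ratio, the core genes were 1.48-fold (HTB2) to 1.91-fold (HTB1) above 0 min at 90 min, the linker histone HHO1 was 1.38-fold and HTZ1 was 1.21-fold above it. Called higher at an adjusted p under 0.05 in limma were 10 of 10 histone genes, against 20.7% of the 6046 genes tested. When a log2 change of 0.5 or more was also required, 8 of 10 were called, the 8 core genes, against 2.63% of genes. The median change at 90 min was 0.77 over the 10 genes and 0 over all genes tested.

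**Figure D1:**
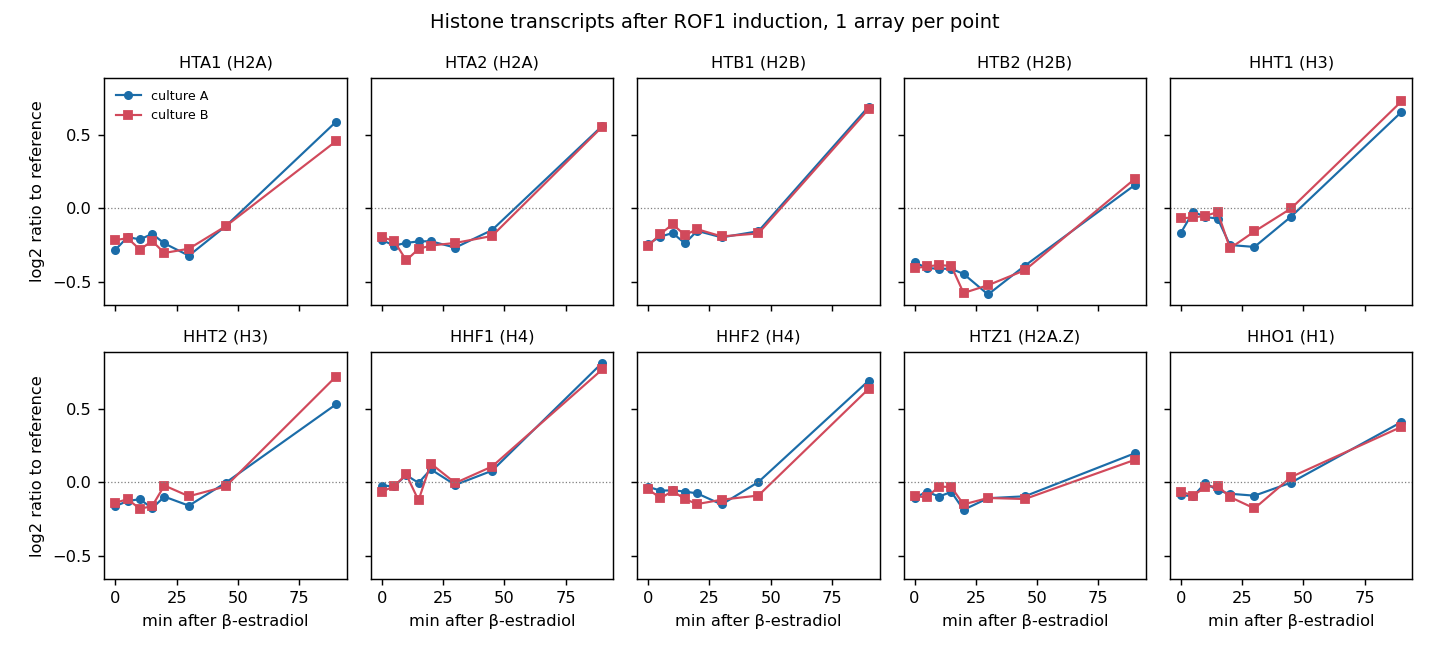
Log2 ratio of each histone transcript to the reference (y axis) against minutes after β-estradiol (x axis), 1 point per array, with culture A as blue circles and culture B as red squares. In all 10 panels both 90 min points lie above the 14 earlier points, by 0.18 (HTZ1) to 0.78 (HTB1).

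HTB1, an H2B gene, showed the largest change of the 10 in the ratio, though not in red alone, where it changed by 0.48 (adjusted p = 0.221) with the green reference at -0.46. Its log2 ratio in culture A was -0.24, -0.19, -0.17, -0.24, -0.15, -0.20, -0.16 and 0.69 at 0, 5, 10, 15, 20, 30, 45 and 90 min, and in culture B it was -0.26, -0.17, -0.11, -0.18, -0.14, -0.19, -0.17 and 0.68. The 14 arrays up to 45 min thus lay within 0.15 of each other, and both 90 min arrays lay 0.78 or more above them. The change from 0 to 90 min was 0.93 ± 0.02 (SE, n = 2 cultures, adjusted p = 4.24e-08, limma). Each SE given here is that of the limma fit, from a spread per gene shared by all times. It is not the spread of the 2 cultures at 90 min.

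HTB2, the other H2B gene, had the smallest change of the core genes in the ratio, while in red alone its change (0.57, adjusted p = 0.0421) was above those of HTB1 (0.48) and HHF1 (0.30). That order held in culture B only (0.81 against 0.20 and 0.19), and in culture A HTB2 was the lowest of them (0.32 against 0.76 and 0.41). Its log2 ratio was -0.37 and -0.41 at 0 min in cultures A and B, -0.39 and -0.42 at 45 min, and 0.16 and 0.20 at 90 min. In between it reached -0.59 in culture A at 30 min, the lowest ratio of any histone gene. The groups at 45 and 90 min did not overlap, and the change from 0 to 90 min was 0.57 ± 0.04 (SE, n = 2, adjusted p = 2.44e-05, limma).

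The H2A genes moved alike at 90 min. HTA1 stood at -0.28 and -0.22 at 0 min in cultures A and B, at -0.12 and -0.12 at 45 min, and at 0.59 and 0.46 at 90 min. HTA2 stood at -0.21 and -0.20, then at -0.15 and -0.19, and then at 0.56 and 0.56. Culture A was higher than B for HTA1 at 90 min, and both cultures were level for HTA2. Their changes were 0.77 ± 0.04 (SE, n = 2, adjusted p = 6.57e-06) for HTA1 and 0.76 ± 0.03 (adjusted p = 1.65e-06, limma) for HTA2. By culture, HTA1 changed by 0.87 in A and 0.67 in B.

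The H3 genes rose by similar amounts too. HHT1 went from -0.17 and -0.07 at 0 min to -0.06 and 0.00 at 45 min and to 0.66 and 0.73 at 90 min in cultures A and B. HHT2 went from -0.16 and -0.14 to 0.00 and -0.03 and to 0.53 and 0.72. For both genes culture B was the higher at 90 min, and for HHT2 the cultures were farther apart there than for the other genes. The changes were 0.81 ± 0.04 (SE, n = 2, adjusted p = 1.58e-06) for HHT1 and 0.77 ± 0.05 (adjusted p = 1.46e-05, limma) for HHT2. By culture, HHT2 changed by 0.69 in A and 0.86 in B.

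Of the H4 genes, HHF1 reached the highest ratios to the reference of all 10. It stood at -0.02 and -0.06 at 0 min in cultures A and B, at 0.08 and 0.11 at 45 min and at 0.81 and 0.77 at 90 min. HHF2 stood at -0.03 and -0.05, then at 0.00 and -0.09, and then at 0.69 and 0.64. Both were near the reference level before 90 min and above it at 90 min. The changes were 0.83 ± 0.04 (SE, n = 2, adjusted p = 1.07e-06) for HHF1 and 0.70 ± 0.03 (adjusted p = 7.8e-07, limma) for HHF2. In red alone that of HHF1 was 0.30 and did not pass (adjusted p = 0.355), with green at -0.54.

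The ratios of HTZ1 and HHO1 rose less. HTZ1 stood at -0.11 and -0.09 at 0 min in cultures A and B, at -0.09 and -0.11 at 45 min, and at 0.20 and 0.15 at 90 min, a change of 0.28 ± 0.03 (SE, n = 2, adjusted p = 0.000115, limma). In red alone HTZ1 changed by 0.06 (adjusted p = 0.91), with 0.21 in A but -0.10 in B, and its green signal changed by -0.22. HHO1 stood at -0.09 and -0.06, then at 0.00 and 0.04, and then at 0.41 and 0.38, a change of 0.47 ± 0.03 (adjusted p = 9.32e-06), and of 0.33 in red alone (adjusted p = 0.155). For both genes the 90 min ratios lay above every earlier one, as they did for the core genes. Such a separation was seen for 10 of 10 histone genes and for 16.6% of genes tested.

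Most of the rise in the ratio fell between 45 and 90 min. In that step alone 10 of 10 were called higher and 0 lower (0 also at an unadjusted p under 0.05), against 8.87% and 8.37% of genes, with changes of 0.59 (HTB2) to 0.85 (HTB1) for the core genes, 0.38 for HHO1 and 0.28 for HTZ1. In the red channel alone 1 of 10, HTA2, was called higher in that step. At 45 min the median change of the core genes from 0 min was 0.09, and at 90 min it was 0.77. Of all genes tested, 17 had a step from 45 to 90 min at least as large as that of HTB2, and 8 of these were the core histone genes. The other 9, named after their values were seen, were PTR2, BAP2, AMF1, CYC7, YDL023C, YER188W, DFP2, TIR3 and FET4, of which YDL023C did not pass the test (adjusted p = 0.182). PTR2, a peptide transporter gene, had a step of 3.66, and that of the branched-chain amino acid permease gene BAP2 was 1.27.

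**Figure D2:**
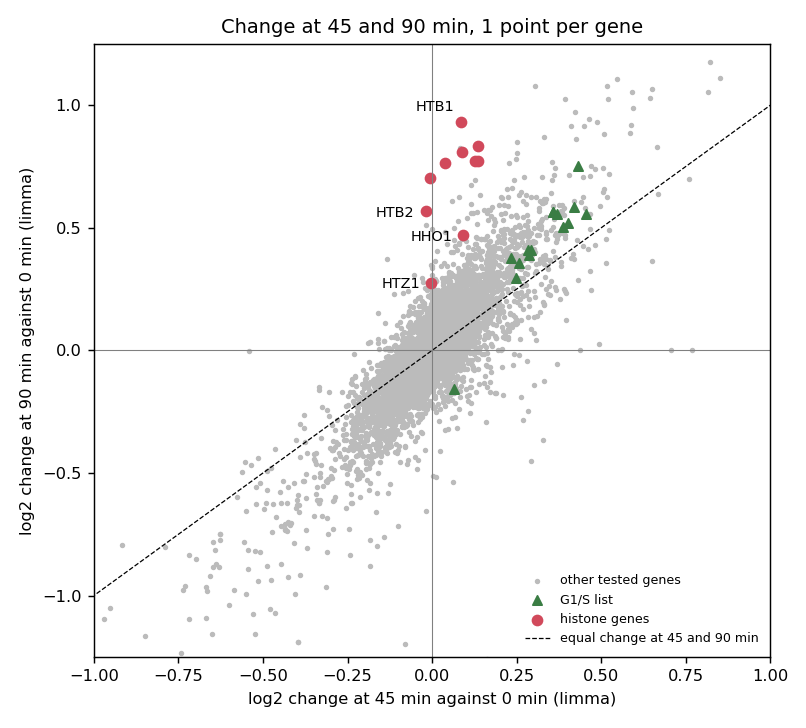
Log2 change from 0 min at 90 min (y axis) against that at 45 min (x axis) for the genes tested, 1 point per gene, with histone genes as red circles, the list of G1/S genes as green triangles and other genes in grey (57 genes lie outside the axes). The histone genes lie between -0.02 and 0.14 on the x axis and between 0.28 and 0.93 on the y axis, above the dashed line of equal change.

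Up to 45 min few histone genes passed the test, and the directions were mixed. At 5 and 15 min, 0 of 10 were called in either direction, against 10.1% of genes higher and 9.54% lower at 5 min and 9.01% higher and 9.84% lower at 15 min, and at an unadjusted p under 0.05 only HTB1 at 5 min passed. At 10 min HTB1 was called higher (0.11, adjusted p = 0.00709; 11.6% of genes were called higher). At 20 min HTB1 (0.10, adjusted p = 0.0183) and HHF1 (0.15, adjusted p = 0.0248) were higher, against 7.96% of genes, and HHT1 was lower (-0.14, adjusted p = 0.0339), against 7.56%. The H3 gene HHT1 stood at -0.25 and -0.27 in cultures A and B at 20 min and at -0.07 and -0.03 at 15 min, and its neighbour HHF1 at 0.09 and 0.13 at 20 min and at 0.00 and -0.12 at 15 min. In that step HHT1 moved by -0.21 (adjusted p = 0.0207) and HHF1, its partner in the divergent pair, by 0.17 (adjusted p = 0.0343, limma). Without the 15 min array of culture B, which had the 183 outlier spots and on which HHF1 was dim in both colours (-0.61 in red and -0.56 in green against 0 min), neither call passed (HHT1 -0.21, adjusted p = 0.113; HHF1 0.11, adjusted p = 0.132). The HHF1 call was lost in 13 of 29 alternatives and that of HHT1 in 5.

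At 30 min HTB2 was lower (-0.17, adjusted p = 0.0381), against 5.94% of genes, and at 45 min HTB1 (0.09, adjusted p = 0.0305) and HHF1 (0.14, adjusted p = 0.0329) were higher, against 8.78%. At an unadjusted p under 0.05 (limma), 2 of 10 were higher and 4 lower at 20 min. At 30 min 1 was higher and 3 were lower, and at 45 min 6 were higher and 0 lower. Between neighbouring times HTZ1 was lower at 20 than at 15 min (-0.12, adjusted p = 0.0447), as was HHT1, against 2.80% of genes. HHF1 was the gene called higher in that step, against 2.75%. From 30 to 45 min HHT1 (0.18, adjusted p = 0.0411) and HHO1 (0.15, adjusted p = 0.0346) were higher, against 1.79%. At an unadjusted p under 0.05, 7 of 10 were higher and 0 lower in that step, and the median change of the 10 was 0.11. In the other directions and steps up to 45 min limma called 0 of 10, and at an unadjusted p under 0.05 between 0 and 2 passed. The shares of all genes there were 12.9% lower at 10 min, 5.52% higher at 30 min and 7.96% lower at 45 min against 0 min, 1.34% lower and 0.513% higher from 5 to 10 min, 0.463% lower and 0.215% higher from 10 to 15 min, 2.02% lower and 0.976% higher from 20 to 30 min, and 1.54% lower from 30 to 45 min. Each of these 12 early calls was lost in 4 to 18 of 29 alternative settings. Without the 0 min array of culture B, 0 of the 5 higher calls against 0 min passed, and without that of culture A, 1 did, while without any 1 of 8 arrays (0, 15, 45 or 90 min of either culture) 0 of the 2 lower calls passed.

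Averaged over the 7 later times, 6 of 10 genes (HTA1, HTB1, HHT1, HHT2, HHF1 and HHO1) were called higher than at 0 min, against 12.0% of genes (0 were lower, against 12.4%, and 0 at an unadjusted p under 0.05), with changes of 0.08 (HHO1) to 0.20 (HTB1). Without the 0 min array of culture A, 2 of 10 were called. A change at some time, by the moderated F test, was called for 10 of 10, against 50.6% of genes.

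At 0 min, before β-estradiol was added, 8 of 10 histone transcripts were below the reference strain, against 23.8% of genes, and 0 were above it, against 25.9%. HTB2 stood lowest at -0.39 (adjusted p = 9.53e-06, limma), followed by HTA1 and HTB1 at -0.25 and HTA2 at -0.21, and then by the H3 genes HHT2 (-0.15) and HHT1 (-0.12). The H4 genes HHF1 (-0.04, adjusted p = 0.178) and HHF2 (-0.04, adjusted p = 0.261) did not pass the test. HTZ1 stood at -0.10 and HHO1 at -0.07. The dyes were not swapped, so a dye bias of a probe is part of these ratios, though not of a change between times.

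Copies of 1 histone were compared within arrays. The difference HTB2 minus HTB1 moved by -0.41 in culture A and -0.32 in culture B between 0 and 90 min (-0.37 ± 0.04 SE, adjusted p = 0.000289, limma), so the H2B copies did not move alike in the ratio. From the red channel alone that value was 0.09, a mean of cultures that went opposite ways. In red, HTB2 and HTB1 changed by 0.32 and 0.76 in culture A, and by 0.81 and 0.20 in culture B. HHF2 minus HHF1 moved by -0.11 and -0.15 (-0.13 ± 0.04 SE, adjusted p = 0.047), and was 0.28 in red alone. Its call was lost in 15 of 29 alternatives, among them leaving out any 1 of 10 arrays (0, 5, 10, 30 or 90 min of either culture). HTA2 minus HTA1 moved by -0.01 ± 0.04 (SE, adjusted p = 0.947) and HHT2 minus HHT1 by -0.03 ± 0.05 (adjusted p = 0.684). A probe that binds RNA of both copies would make such a difference smaller than it is.

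HTZ1 rose by 0.49 ± 0.05 (SE) less than the mean of the H2A genes at 90 min (adjusted p = 0.000144), and HHO1 by 0.30 ± 0.04 less than the mean of the 8 core genes (adjusted p = 0.000581, limma). In red alone HTZ1 remained lower than the H2A genes (-0.62, adjusted p = 0.0348), while HHO1 against the core genes did not pass (-0.25, adjusted p = 0.31). The mean of HTA2 and HTB2 moved by -0.19 ± 0.03 (SE) relative to the mean of HTA1 and HTB1, and by 0.08 in red alone, where HTB1 and HTB2 differed between the cultures. The mean of the H3 and H4 genes moved by 0.02 ± 0.02 (SE) relative to that of the H2A and H2B genes.

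The ratio combines both channels, and these were looked at separately after each was scaled to its array's 75th percentile. In red alone 6 of 10 were called higher at 90 min, against 2.93% of genes: HTA1 (0.63), HTA2 (0.71), HTB2 (0.57), HHT1 (0.66), HHT2 (0.70) and HHF2 (0.58). HTB1 (0.48, adjusted p = 0.221), HHF1 (0.30, adjusted p = 0.355), HHO1 (0.33, adjusted p = 0.155) and HTZ1 (0.06, adjusted p = 0.91) did not pass. The green channel, which held the same reference RNA on every array, moved by -0.54 ± 0.14 (SE) for HHF1, -0.46 ± 0.21 for HTB1 and -0.22 ± 0.14 for HTZ1, and by between -0.16 and 0.00 for the other 7 genes, with 0 of 10 called (adjusted p of 0.962 or more). These green values are means of 2 cultures. In culture A green was below 0 for every histone gene, from -0.42 (HHT1) to -0.08 (HTA2). In culture B it ran from -0.74 (HTB1) to 0.19 (HTB2), and was also above 0 for HHT1 and HHT2. The median green change of all genes was 0.02.

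**Figure D3:**
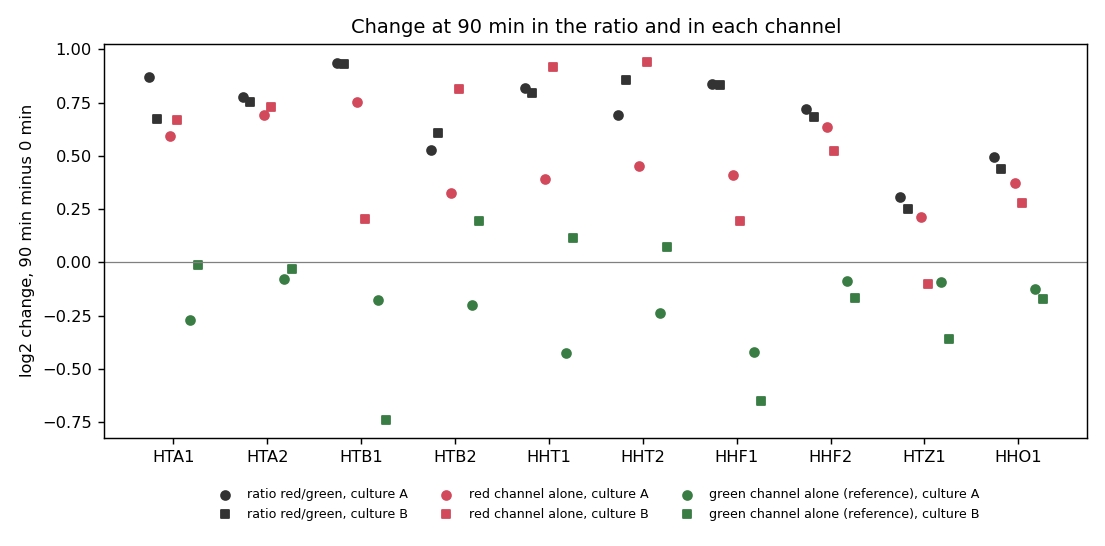
Log2 change from 0 to 90 min (y axis) of the ratio (black), of the red channel alone (red) and of the green reference channel alone (green) for each histone gene, with culture A as circles and culture B as squares. The ratio is above 0 for all 10 genes in both cultures, while in culture B green is at -0.74 for HTB1 and -0.65 for HHF1. In culture A green is below 0 for every gene, down to -0.42 for HHT1 and HHF1.

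In culture B the reference signal of HTB1 was 41390 intensity units at 0 min, 21530 at 15 min and 24830 at 90 min, and its sample signal was 34660, 18970 and 39670. At 15 min both signals were thus low together and the ratio was little changed, and at 90 min the reference was low and the sample was not. The part that spot signal played in the size of the histone changes, among them those of HTB1, HHF1 and HTZ1, was not tested. The 281 other genes at least as bright in red as the dimmest core histone gene had a median change of -0.01 at 90 min, with 27.8% of them called higher.

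Genes around histone supply were read from 6 lists. Of 9 regulators of histone gene transcription, 3 were called higher at 45 min and 6 at 90 min, with 0 lower at either time and a median of 0.25 at 90 min against 0 over all genes. Of all genes tested, 8.78% were called higher and 7.96% lower at 45 min, and 20.7% higher and 20.0% lower at 90 min. The regulators higher at 90 min included the H3-H4 chaperone gene ASF1 (0.37, adjusted p = 0.0277), SPT21, whose product activates histone genes (0.35, adjusted p = 0.000139), HIR2, of the HIR complex (0.34, adjusted p = 0.000124), and RTT106 (0.26, adjusted p = 0.000618, limma). In red alone ASF1 changed by 0.28, SPT21 by 0.39, HIR2 by 0.46 and RTT106 by 0.08. For genes of these lists the red values are given as sizes only, without a test. Of the other genes of that list, HIR1 (0.087, adjusted p = 0.135) and HIR3 (0.085, adjusted p = 0.0695) were not called at 90 min. HPC2 was higher (0.25, adjusted p = 0.00443, limma). HIR1, HIR3 and HPC2 were named after their values were seen. SPT21 was already at 0.33 at 45 min, when the core histone genes were at a median of 0.09.

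Of 16 histone chaperones and deposition acetylases, 7 were higher and 2 lower at 90 min (4 and 0 at 45 min), with a median of 0.15, beside 20.7% of all genes higher and 20.0% lower at 90 min (8.78% and 7.96% at 45 min). RLF2, of the CAF-1 chaperone, rose by 0.46 (adjusted p = 0.000864), RTT109, the H3 acetyltransferase gene, by 0.38 (adjusted p = 9.44e-05), and NHP6B, of the high mobility group proteins, by 0.30 (adjusted p = 2.44e-05). In red alone RLF2 changed by 0.56, RTT109 by 0.14 and NHP6B by 0.30. CHZ1, which encodes a chaperone of H2A.Z-H2B dimers, was lower (-0.37, adjusted p = 0.00448), as was MSI1, also of CAF-1 (-0.16, adjusted p = 0.00702; named after its value was seen, as are RNR1 and CLB2). In red alone CHZ1 changed by -0.30 and MSI1 by -0.09. Of 13 genes of the SWR1 complex and H2A.Z deposition, 0 were higher and 1 was lower at both 45 and 90 min, SWR1 itself (-0.14 at 90 min, adjusted p = 0.0154), and the median at 90 min was 0.02. The same shares of all genes, 20.7% higher and 20.0% lower at 90 min and 8.78% and 7.96% at 45 min, stand beside these counts. CSE4, which encodes the centromeric H3 variant, rose by 0.39 (adjusted p = 0.00315, limma).

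Genes with known cell cycle phases were set beside the histone genes. Of 15 G1/S genes, 14 were higher at 45 min and 14 at 90 min, when the ribonucleotide reductase gene RNR1 was lower (-0.16, adjusted p = 0.0424), with medians of 0.36 and 0.51, beside 8.78% of all genes higher at 45 min and 20.7% at 90 min. Earlier, 4, 5 and 6 of the 15 were lower at 5, 10 and 15 min (medians -0.08, -0.14 and -0.08), beside 9.54%, 12.9% and 9.84% of all genes, and 0 were higher. Among those higher at 90 min were the cohesin gene MCD1 (0.75, adjusted p = 5.02e-05), the S-phase cyclin gene CLB6 (0.59, adjusted p = 0.000153), TOS4 (0.57, adjusted p = 1.69e-05) and the replication protein gene RFA1 (0.56, adjusted p = 5.27e-05). In red alone MCD1 changed by 0.84, CLB6 by 0.67, TOS4 by 0.48 and RFA1 by 0.53. At 45 min the G1/S genes were thus called higher in most cases, while the core histone median was then 0.09.

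Of 12 G2/M genes, 9 were higher at 45 min and 9 at 90 min, with medians of 0.19 and 0.29, beside 8.78% and 20.7% of all genes, and the cyclin gene CLB2 was lower at 90 min (-0.24, adjusted p = 0.00693). Among those higher were the cyclin gene CLB1 (0.71 at 90 min, adjusted p = 1.63e-05), the deacetylase gene HST3 (0.48, adjusted p = 1.07e-06), ALK1 (0.47, adjusted p = 8.11e-06) and SWI5 (0.43, adjusted p = 0.000184). In red alone CLB1 changed by 0.81, HST3 by 0.47, ALK1 by 0.33 and SWI5 by 0.13. Of 11 M/G1 genes, 7 were higher at 45 min and 6 at 90 min (1 lower), with medians of 0.25 and 0.20, beside the same shares of all genes (20.0% lower at 90 min). The licensing factor gene CDC6 (0.49, adjusted p = 0.000105), the inhibitor gene SIC1 (0.37, adjusted p = 5.02e-05) and EGT2 (0.25, adjusted p = 0.000451) were higher at 90 min, and the helicase gene MCM3 was lower (-0.27, adjusted p = 0.0012, limma). In red alone CDC6 changed by 0.23, SIC1 by 0.50, EGT2 by 0.15 and MCM3 by -0.24. In these bulk samples a different share of cells in a phase and a different level of RNA per cell cannot be told apart.

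**Figure D4:**
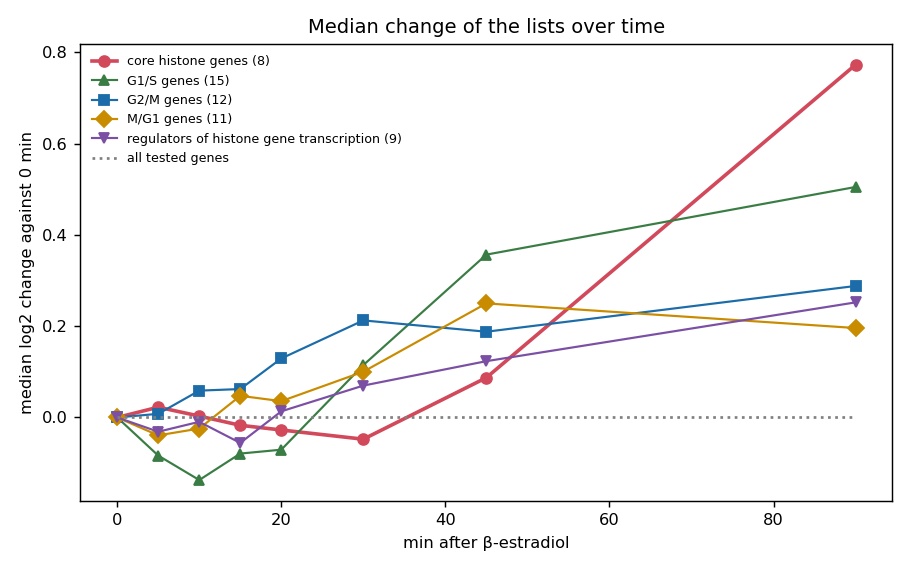
Median log2 change from 0 min (y axis) against minutes after β-estradiol (x axis) for the 8 core histone genes, for 4 gene lists (numbers of genes in the key) and for all genes tested, over the fit's values from both cultures. At 45 min the G1/S median was 0.36 and the core histone median 0.09, and at 90 min they were 0.51 and 0.77.

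Genes with a similar course were ranked by the lower of the 2 cultures' Pearson r with the mean profile of the core histone genes over the 8 times, among the 739 genes whose profile spanned at least 0.5. The r was 0.9 or more for 29 genes. The first 8 were PTR2 (0.98), the allantoate permease gene DAL5 (0.96), AIM34 (0.96), the kinesin gene KIP1 (0.96), the shugoshin gene SGO1 (0.95), YGR035C (0.95), the septin-associated BNI5 (0.94) and the spindle pole body gene SPC98 (0.94). These r rest on 8 times of 1 culture each, and largely on the 90 min arrays. The changes of these genes at 90 min were 0.53 (AIM34) to 4.91 (PTR2). That of PTR2 was 2.908 to 5.043 over 28 alternative settings.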

How the data were processed

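The authors scanned the 2-colour Agilent arrays and read the spots with Feature Extraction. Per the file headers, background was removed from both colours' intensity, and dye bias was corrected array by array. The authors also deposited a table of log2 ratios made from intensities floored at 50, which equalled ratios recomputed from the scanner files at every spot (0 differed by over 1e-04). Here, each probe was the mean log2 ratio of its 2 spots after the floor, without outlier spots. Genes were tested (6046 of 6225) if well above background in red on at least 2 of 16 arrays. Probes were assigned to genes by the ORF names of the array design. The RefSeq table of assembly R64 gave the gene symbols (5720 of 6225 genes matched, and the others kept the array name). It also gave the ORFs of the listed genes, through symbols or synonyms, and the chromosomes and neighbours of the histone genes. No sequences were used, and no coordinates are given here.

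Changes were tested with limma 3.58.1 (lmFit, eBayes) in R 4.3.3, with terms for time (as a factor) and for culture (the block; 7 residual degrees of freedom, prior 0.89), and Benjamini-Hochberg adjustment over all genes and the 8 difference rows. The pairing rests on each culture being sampled repeatedly. The 0 min ratios were fitted without the block. Every SE and p of that fit rests on a spread per gene shared by all times. Calls were made at an adjusted p under 0.05. Scripts were tested on simulated data, and plots were drawn with matplotlib. With 2 cultures, precision is limited by their number.

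The histone genes, the 6 lists and the tests were chosen with earlier results of these data known. Named are all 10 histone genes, up to 4 called genes per list with the largest change, CSE4, ROF1 and the 8 genes of most similar course. The alternatives covered background correction, floor, filter, centring, single-channel values, block, prior, minimum change and left-out arrays or cultures.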

Additional observations from a re-analysis of the deposited data

How the results depend on the processing

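The 10 histone genes were called higher at 90 min, and at 90 against 45 min, with any 1 of the 16 arrays left out (10 to 10). A minimum change of 1 left 0 in both comparisons, and the red channel alone left 6 at 90 min and 1 against 45 min (HTA2). The 6 calls in the mean of later times became 0 with a minimum change of 0.5 or 1 and in red alone. They were 5 with normexp and loess, no floor, the strict filter and genes with red above the floor. With 1 array left out they ranged from 2 to 7. Leaving out a culture left 1 array per time and no replicates, so it could not show whether these calls hold. The 10 calls of change over time became 5 in red alone. Without the replicate block 10 genes were called at 90 min and the lower calls over 5 to 45 min went from 2 to 1. These lower calls were also 1 with no floor and with normexp and loess, and 0 in red alone and at both minimum changes, ranging from 0 to 3 over left-out arrays. The 5 higher calls over 5 to 45 min became 1 with normexp and loess, 2 with no floor, 3 with the strict filter and 6 with the deposited table. They were 0 in red alone and at both minimum changes. Over genes with red above the floor, a setting chosen after seeing the data, they were 2. With 1 array left out they ranged from 0 to 6.

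The 3 higher calls between neighbouring times up to 45 min became 0 with no floor, in red alone and at both minimum changes (0 to 3 over left-out arrays). They were 2 with normexp and loess, a floor of 200, the strict filter and genes above the floor. They were also 2 without the block and with a prior that follows intensity. The 2 lower ones became 1 with normexp, no floor, a floor of 200, the strict filter and genes above the floor, and 0 in red alone and at both minimum changes (0 to 2). Counts of differences were taken over 6 of the 8 rows: the 4 copy pairs, HTZ1 against the H2A genes and HHO1 against the core genes. Of these, 4 called at 90 min became 1 in red alone and 0 at both minimum changes (3 to 4). They were 3 with normexp and loess, no floor, a floor of 200 and no filter, and 5 with the deposited table. The 2 in the mean became 1 with normexp and 0 in red alone and at both minimum changes (0 to 2). The 5 that changed over time became 0 in red alone (3 to 5, with 3 without the 20 min array of culture B). Signs turned in red alone for HHF1 (-0.033), HHO1 (-0.016), CDC6 (-0.0068) and EGT2 (-0.011) in the mean, HTB1 at 10 min (-0.040), HTZ1 from 15 to 20 min (0.15), HTB2 minus HTB1 (0.065 in the mean, 0.089 at 90 min), HHF2 minus HHF1 (0.11 and 0.28) and the HTA2-HTB2 against the HTA1-HTB1 locus (0.0041 and 0.084). Among the listed genes and CSE4, some higher or lower calls at 90 min were lost in at least 1 of 29 alternatives. These were ASF1, SPT21, RTT106, RTT109, CHZ1, NHP6B, SWR1, ALK1, SWI5, CDC6, EGT2, MCM3 and CSE4. The calls of HIR2, RLF2, MCD1, CLB6, TOS4, RFA1, CLB1, HST3 and SIC1 were kept in all 29. YGR035C was 0 at 90 min with a floor of 200, which by construction sets signals under it equal. The cause of the other shifts was not tested.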
